A study of Mus musculus with 6 samples.

Results

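The oligoadenylate synthetases are enzymes and enzyme relatives that bind double-stranded RNA, and the 8 genes described here were chosen as the listed Oas symbols of the deposited count table: Oas1a, Oas1b, Oas1c, Oas1g, Oas2, Oas3, Oasl1 and Oasl2. All 8 were found among the 24197 genes of the table, and all 8 passed the filter on low counts that left 13805 genes for testing. The libraries were of polyadenylated RNA from stromal-vascular cells of the inguinal fat of C57BL/6 mice, the adipose fraction that holds progenitors, fibroblasts, vascular and immune cells. Of 6 libraries, 3 came from cells that received a Prdm16 retrovirus and 3 from cells that received the retrovirus labelled control (puro). Prdm16 is a zinc-finger transcriptional regulator of brown and beige fat, so the comparison addresses its forced expression. All cells of both groups had thus been exposed to a retrovirus, and untransduced cells were not analysed here. The labels give a standard growth medium and no treatment, and name neither the animals per library, their age, nor the time after transduction. They do not say whether replicates were separate cultures, and the p-values given here therefore speak of the spread among 3 libraries a group, part or all of which may be technical.

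An active synthetase that has bound double-stranded RNA joins ATP into chains with 2-5 linkages, called 2-5A. These chains act as an antiviral messenger inside the cell. The genes are classical targets of interferon: receptors at the cell surface signal through JAK kinases to transcription factors that bind an interferon-stimulated response element, or ISRE, near the start of such genes. In mice the single Oas1 gene of humans has become a cluster of copies, only some of which keep enzyme activity.

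Library totals ranged from 28169059 to 34349660 counts in the Prdm16 group and from 31866630 to 35798201 in the puro group. Levels are given as CPM, which is counts per 1000000 of the library total after TMM scaling. A gene with 0 counts in a library may still lie up to 3 counts there, which was 0.0852 to 0.104 CPM depending on the library. Prdm16 itself was read 72525 to 98437 times in a Prdm16 library and 14 to 25 times in a puro library. Of 11 stromal progenitor markers 8 were lower, 2 higher and 1 did not pass. At the same threshold, an adjusted p below 0.05, 75.6% of all tested genes were called and 38% were called lower. The collagen gene Col3a1 averaged 1880 CPM with Prdm16 and 5006 CPM with puro, the progenitor surface marker Ly6a 988 CPM with Prdm16 and 375.9 CPM with puro, and the receptor Pdgfrb 195 CPM with Prdm16 and 554 CPM with puro. Pdgfra, a receptor of adipose progenitors, stood at 188 ± 6.63 CPM in Prdm16 libraries and 199 ± 9.57 CPM in puro libraries (SD, n = 3 each), and did not pass the test. The matrix proteoglycan Dcn was low, at 4.13 CPM with Prdm16 and 4.90 CPM with puro, as was Lum, at 0.518 CPM with Prdm16 and 0.0807 CPM with puro. The pan-leukocyte marker Ptprc had at most 4 counts in any library, the macrophage marker Emr1 had 0, and 5 of 9 lymphocyte markers had 0 counts in all libraries.

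The promoter windows of the family show which copies resemble each other before any value is given. RefSeq windows of 300 bases, 250 before and 50 after the gene start, were at hand for 6 members on build GRCm38.p6. The counts were made on another build, mm9, so these positions place the windows only. The ISRE core was searched as GAAANNGAAA on both strands, where the other strand reads TTTCNNTTTC, and is shown in capitals, 5′ to 3′ on the strand of the gene.

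Oas1a (chr5:120907476-120907775, minus strand): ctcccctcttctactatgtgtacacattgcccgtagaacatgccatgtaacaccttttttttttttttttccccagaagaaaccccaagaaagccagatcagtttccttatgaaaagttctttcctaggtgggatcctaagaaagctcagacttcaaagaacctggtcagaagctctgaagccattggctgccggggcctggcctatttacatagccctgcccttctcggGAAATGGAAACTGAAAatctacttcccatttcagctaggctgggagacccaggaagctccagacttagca

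Oas1g (chr5:120887564-120887863, minus strand): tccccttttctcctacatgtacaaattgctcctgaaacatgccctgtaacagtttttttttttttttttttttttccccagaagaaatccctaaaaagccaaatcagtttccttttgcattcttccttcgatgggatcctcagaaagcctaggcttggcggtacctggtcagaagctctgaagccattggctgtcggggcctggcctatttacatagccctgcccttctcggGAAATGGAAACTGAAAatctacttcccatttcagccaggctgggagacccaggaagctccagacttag

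Oas1c (chr5:120812465-120812764, minus strand): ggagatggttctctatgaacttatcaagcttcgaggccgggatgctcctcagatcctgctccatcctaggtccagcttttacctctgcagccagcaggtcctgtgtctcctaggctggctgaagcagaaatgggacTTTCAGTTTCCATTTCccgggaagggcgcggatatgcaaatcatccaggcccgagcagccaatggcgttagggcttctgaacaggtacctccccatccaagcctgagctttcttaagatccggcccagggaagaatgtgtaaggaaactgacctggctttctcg

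Oas3 (chr5:120777610-120777909, minus strand): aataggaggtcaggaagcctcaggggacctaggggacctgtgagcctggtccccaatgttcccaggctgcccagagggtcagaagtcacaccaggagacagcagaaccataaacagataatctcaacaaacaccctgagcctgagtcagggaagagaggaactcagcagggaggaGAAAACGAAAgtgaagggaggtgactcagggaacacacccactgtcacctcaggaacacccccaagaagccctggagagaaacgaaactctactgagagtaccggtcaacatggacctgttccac

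Oas1a and Oas1g carried the same pair of cores. The matches overlapped by 4 bases in a run of 16, and the first began 20 bases before the Oas1a start and 18 before the Oas1g start. Their windows were identical at 261 of 294 aligned bases, or 88.8%. Oas1c also held 2 overlapping cores, from 114 bases before its start. Oas1b lies head to head with Oas1c, with starts 121 bases apart in the annotation, so that the Oas1c window contains the Oas1b start and its nearer core stands 7 bases from it. Oas3 held 1 core, 75 bases before the start. Of the 6 members with a window these 4 held a core, and Oasl1 and Oasl2 did not. The windows of Oas1f and Oas1h, further Oas1 copies outside the 8 members, held no core. Among all 32851 RefSeq windows 3.44% held one. The core of a gamma-activated site, TTCNNNGAA, which reads alike on either strand, was found in 1 member, Oas1a, and in 8.3% of all windows. A match is a description of letters and not of binding.

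Every member fell in the Prdm16 libraries. With edgeR, whose quasi-likelihood p-values were adjusted by Benjamini and Hochberg's method across the 13805 genes, 8 of 8 were lower at an adjusted p below 0.05. In the same comparison 75.6% of all tested genes were called, and 38% of all tested genes were called lower. The groups did not overlap for 8 of 8 members, with every Prdm16 library below every puro library, as was so for 39.2% of all tested genes. The median log2 fold change, Prdm16 over puro, was −2.44 over the members and −0.01 over all tested genes. Summed over the 8 genes, the level was 350.8 ± 19.3 CPM in Prdm16 libraries and 1862 ± 27.0 CPM in puro libraries (SD, n = 3 each), 5.27-fold lower. In bulk RNA, fewer cells of a type and less RNA per cell cannot be told apart.

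**Figure D1:**
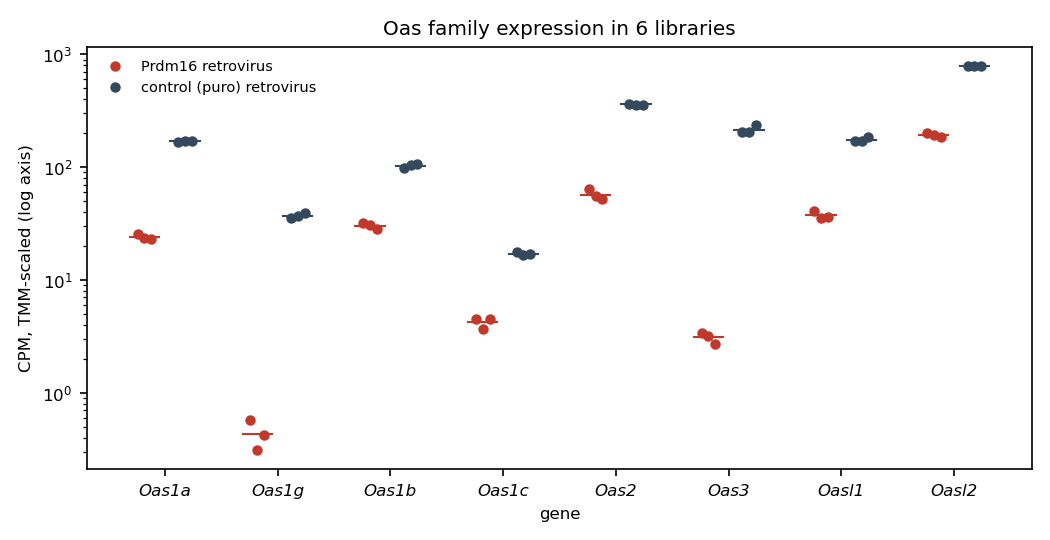
CPM of each Oas gene on a log axis, with 1 point per library and a line at the mean of 3, Prdm16 libraries left of puro libraries. All 8 genes sit lower with Prdm16, and Oas1g and Oas3 average 0.433 and 3.10 CPM with Prdm16, against 37.2 and 215 CPM with puro.

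Oas1a encodes one of the mouse Oas1 enzymes that make 2-5A. It stood at 25.4, 23.8 and 23.2 CPM in the Prdm16 libraries, against 167, 171 and 171 CPM in the puro libraries. The 3 libraries of each group lay close together and the groups were well apart. The log2 fold change was −2.81 ± 0.04 (SE; adjusted p = 1.38e-12), which leaves 14.2% of the puro level. Oas1g, its neighbour and the other enzyme of this kind, was read 20, 9 and 14 times in the Prdm16 libraries, against 1095, 1294 and 1320 times in the puro libraries. The gene thus kept 0.568, 0.311 and 0.419 CPM with Prdm16, against 35.3, 37.1 and 39.3 CPM with puro. All Prdm16 libraries were near the limit of detection and all puro libraries far above it. Its log2 fold change of −6.39 ± 0.12 (SE; adjusted p = 4.58e-12) was the deepest among the members, an 83.9-fold difference, and ranked 49th from the lowest of 13805 genes. Within a library, Oas1a had 44.8, 76.4 and 55.4 counts for each count of Oas1g in the Prdm16 group, against 4.74, 4.60 and 4.34 in the puro group. The log2 ratio of Oas1a to Oas1g was higher by 3.66 in the Prdm16 group, and its groups did not overlap. An exact two-sided permutation test gave p = 0.1, the smallest that 3 against 3 allows, and 0.1 after adjustment over the 3 ratios tested.

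The neighbours Oas1a and Oas1g are the members that share the most sequence, so their counts depend on how shared reads were handled. Their transcripts in GENCODE M21 were identical at 1814 of 1860 aligned bases, or 97.5%, with a longest identical run of 526 bases. Of all 50-base stretches of the Oas1a transcript 57.6% also occurred in Oas1g, and 54.1% of those of Oas1g occurred in Oas1a. At 100 bases, 40.9% of the Oas1a stretches and 38.2% of the Oas1g stretches were shared with any other gene. The identical run covered bases 1123 to 1648 of Oas1a, whose coding part spans bases 46 to 1146, so most of it lies behind the coding part. The copies can be told apart where they differ, as in the 90-base coding stretch with the most differences, 17, marked by capitals.

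Oas1a (bases 483 to 572 of the transcript): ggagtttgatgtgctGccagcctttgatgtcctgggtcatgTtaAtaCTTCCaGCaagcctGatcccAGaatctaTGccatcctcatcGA

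Oas1g (bases 458 to 547 of the transcript): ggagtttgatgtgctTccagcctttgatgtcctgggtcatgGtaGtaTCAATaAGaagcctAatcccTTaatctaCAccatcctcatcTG

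The sources used here give neither the read length nor how reads with several matches were counted. A sum of the rows does not depend on how reads were split between the pair, though any shared reads left uncounted are missing from it too. Together Oas1a and Oas1g stood at 24.6 ± 1.24 CPM in Prdm16 libraries and 206.8 ± 3.72 CPM in puro libraries (SD, n = 3 each), 8.41-fold lower. All 8 Oas1 rows of the table, summed, were 59.2 ± 3.12 CPM with Prdm16 and 328 ± 6.81 CPM with puro, 5.50-fold lower. Oas1a held most of the pair's counts in every library.

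**Figure D2:**
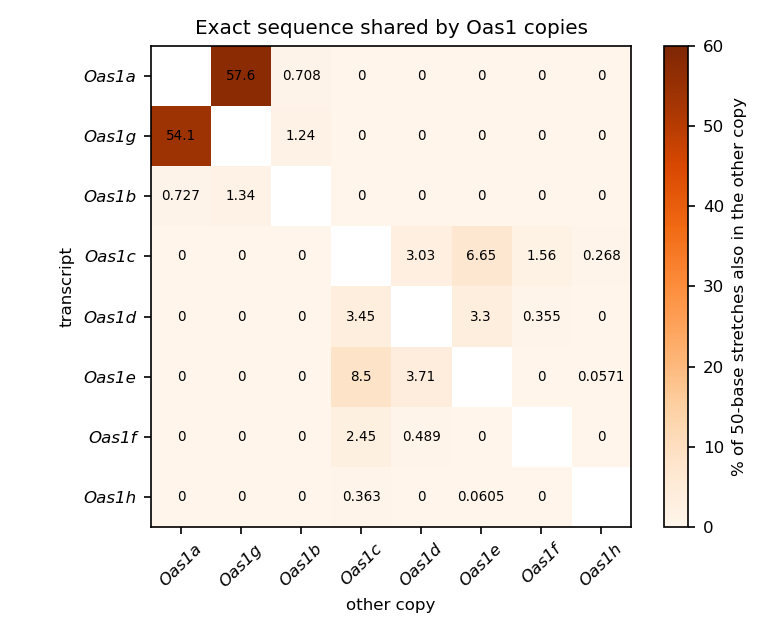
Share of the 50-base stretches of each Oas1 transcript (rows) that also occur in another copy (columns), in percent of the row's stretches. Oas1a and Oas1g share 57.6% and 54.1%, and no other pair shares more than 8.5%.

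Oas1b is known in mice for its premature stop codon in most laboratory strains, among them C57BL/6, which is tied to susceptibility to flaviviruses. GENCODE M21 lists it as a polymorphic pseudogene. It was the member that fell least, at 32.1, 30.4 and 28.5 CPM in the Prdm16 libraries against 99.2, 104.7 and 105.9 CPM in the puro libraries. The log2 fold change was −1.77 ± 0.05 (SE; adjusted p = 8.88e-11). Oas1c, which shares its promoter region, was the least abundant member per length in puro libraries. It stood at 4.52, 3.66 and 4.52 CPM with Prdm16, against 17.7, 16.5 and 17.1 CPM with puro, a log2 fold change of −2.01 ± 0.09 (SE; adjusted p = 3.68e-09). The head-to-head pair thus kept 29.3% and 24.7% of its puro level. Oas1b shared 3.19% of its 50-base stretches with any other gene and Oas1c 10.7%, and neither shared any at 100 bases.

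The remaining copies of the cluster were almost silent. Oas1d had 0 counts in each Prdm16 library, against 16, 16 and 18 counts in the puro libraries. It was the only further copy tested and was called lower, at least 5.42-fold with 3 counts per Prdm16 library as the floor. Oas1e had 4, 0 and 0 counts in the Prdm16 libraries, against 7, 12 and 5 in the puro libraries, and was not tested. Over the groups this is a ratio of 0.17, Prdm16 over puro, with an exact 95% binomial counting interval of 0.0429 to 0.495. Oas1f and Oas1h had at most 3 counts in any library. Intervals and floors cover counting error only.

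Oas2 encodes a larger synthetase built from a pair of OAS units. Its level was 63.4, 55.8 and 52.3 CPM in the Prdm16 libraries, against 364.5, 358.6 and 356.2 CPM in the puro libraries. Every Prdm16 library was low and every puro library high. The log2 fold change was −2.65 ± 0.06 (SE; adjusted p = 1.74e-11), close to that of Oas1a. Oas3, the largest of the enzymes, binds long double-stranded RNA and in human cells is the main source of 2-5A. It had 118, 93 and 91 counts in the Prdm16 libraries, against 6363, 7152 and 7895 counts in the puro libraries. In CPM these were 3.35, 3.21 and 2.73 with Prdm16, against 205.2, 205.0 and 235.2 with puro. The third puro library was the highest, and no Prdm16 library came near any puro library. Oas3 lost nearly all of its signal, with a log2 fold change of −6.12 ± 0.09 (SE; adjusted p = 7.32e-13), a 69.4-fold difference, and ranked 59th from the lowest. Its sequence was nearly its own, with 0.471% of its 50-base stretches in other genes and none for Oas2.

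Oas3 and Oas2 are direct neighbours on chromosome 5, and their ratio did not overlap between the groups. The libraries of the Prdm16 group had 0.0529, 0.0575 and 0.0521 counts of Oas3 per count of Oas2, against 0.563, 0.572 and 0.660 in the puro group. The log2 ratio was lower by 3.46 with Prdm16 (difference −3.46; exact two-sided permutation p = 0.1, the smallest possible, and 0.1 after adjustment over 3 ratios). Leaving out any 1 library put it between −3.51 and −3.39.

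The Oasl genes encode OAS-like proteins with a tail of ubiquitin-like domains. Oasl1 lacks synthetase activity in mice and is known there to hold back translation of the Irf7 transcript. It stood at 40.9, 35.7 and 36.4 CPM in the Prdm16 libraries, against 170.8, 170.4 and 184.8 CPM in the puro libraries, a log2 fold change of −2.22 ± 0.06 (SE; adjusted p = 4.85e-11). Oasl2, which keeps synthetase activity in mice, was the most abundant member in every library. Its level was 201.4, 194.5 and 185.4 CPM with Prdm16, against 785.8, 784.4 and 784.3 CPM with puro, a log2 fold change of −2.02 ± 0.04 (SE; adjusted p = 4.14e-12). The groups again did not overlap for either gene. The log2 ratio of Oasl1 to Oasl2 was −2.36 ± 0.07 in the Prdm16 group and −2.16 ± 0.07 in the puro group (SD, n = 3 each). That difference of −0.20, without overlap of the groups, had exact two-sided permutation p = 0.1, the smallest possible. Neither gene shared a 50-base stretch with another gene.

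Levels of different genes were set side by side per kilobase of the representative GENCODE M21 transcript. With Prdm16 the order was Oasl2 (62.0 ± 2.57 CPM per kb), Oasl1 (17.3 ± 1.30), Oas1b (16.5 ± 0.975), Oas2 (14.4 ± 1.43), Oas1a (12.8 ± 0.602), Oas1c (1.85 ± 0.216), Oas3 (0.656 ± 0.0696) and Oas1g (0.219 ± 0.0653). With puro it was Oasl2 (251.3 ± 0.267 CPM per kb), Oas2 (90.8 ± 1.08), Oas1a (89.96 ± 1.002), Oasl1 (80.4 ± 3.75), Oas1b (56.2 ± 1.96), Oas3 (45.6 ± 3.69), Oas1g (18.8 ± 1.02) and Oas1c (7.47 ± 0.274), all SD with n = 3. Ranges over the libraries overlapped between neighbours in the order for Oasl1 and Oas1b, Oas1b and Oas2, and Oas2 and Oas1a with Prdm16. With puro they overlapped for Oas2 and Oas1a. Within every Prdm16 library, however, Oas1b stood above Oas2 and Oas2 above Oas1a. The order of Oasl1 and Oas1b varied between Prdm16 libraries, as did that of Oas2 and Oas1a between puro libraries. Oas3 had a larger level per length than Oas1c in puro libraries and a smaller one in Prdm16 libraries. Where only the 50-base stretches found in no other gene are counted as length, Oas1a moves up to second place in either group.

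The make-up of the family pool differed between the groups. Oasl2 took 48.4% to 50.1% of the summed CPM per kb in Prdm16 libraries and 38.6% to 39.7% in puro libraries. Oas1b took 12.9% to 13.3% with Prdm16 and 8.52% to 8.95% with puro. Oas3 made up 0.482% to 0.547% with Prdm16 and 6.82% to 7.65% with puro, and Oas1g 0.126% to 0.216% with Prdm16 and 2.82% to 3.05% with puro. With only the 50-base stretches found in no other gene as length, Oas1g made up 0.245% to 0.418% with Prdm16 and 5.09% to 5.51% with puro, and Oas1a 21.0% to 21.3% with Prdm16 and 26.8% to 27.4% with puro, against 10.1% to 10.3% with Prdm16 and 13.9% to 14.2% with puro by whole length. These shares describe the libraries and were not tested.

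**Figure D3:**
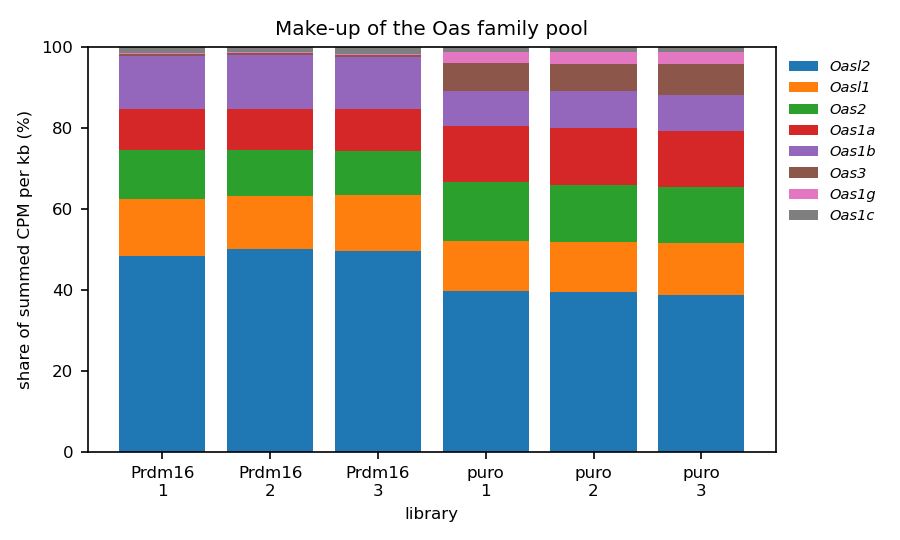
Share of each member in the summed CPM per kb of the 8 genes, 1 bar per library, Prdm16 libraries left and puro libraries right. Oas3 and Oas1g almost vanish from the Prdm16 bars, at no more than 0.547% and 0.216%.

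Both loci lie on chromosome 5, whose 875 tested genes had a median log2 fold change of 0.18, with 205 lower and 462 higher. Of all 13805 tested genes 5252 were called lower and 5178 higher, with a median of −0.01. Chromosome medians ran from −0.41 for chromosome 18 to 0.49 for chromosome 14. The nearest tested genes outside the loci had log2 fold changes between −0.36 and 0.72. On one side of the Oas1, Oas2 and Oas3 cluster the tested neighbours Ddx54, an RNA helicase, Rita1 and Iqcd had log2 fold changes of 0.07 ± 0.10, 0.06 ± 0.08 and 0.11 ± 0.17 and did not pass (adjusted p = 0.509, 0.549 and 0.562, edgeR). On the other side the phosphatase gene Ptpn11, the ribosomal protein gene Rpl6 and Gm15800 were slightly higher, at 0.31 ± 0.03, 0.22 ± 0.04 and 0.27 ± 0.03. Beside Oasl2 and Oasl1 the flanking 2610524H06Rik and 2210016L21Rik had −0.20 ± 0.05 and −0.36 ± 0.05. Both were called lower, and the next genes outward were 1500011B03Rik (0.09 ± 0.09, not passing) and Sppl3 (0.20 ± 0.04).

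**Figure D4:**
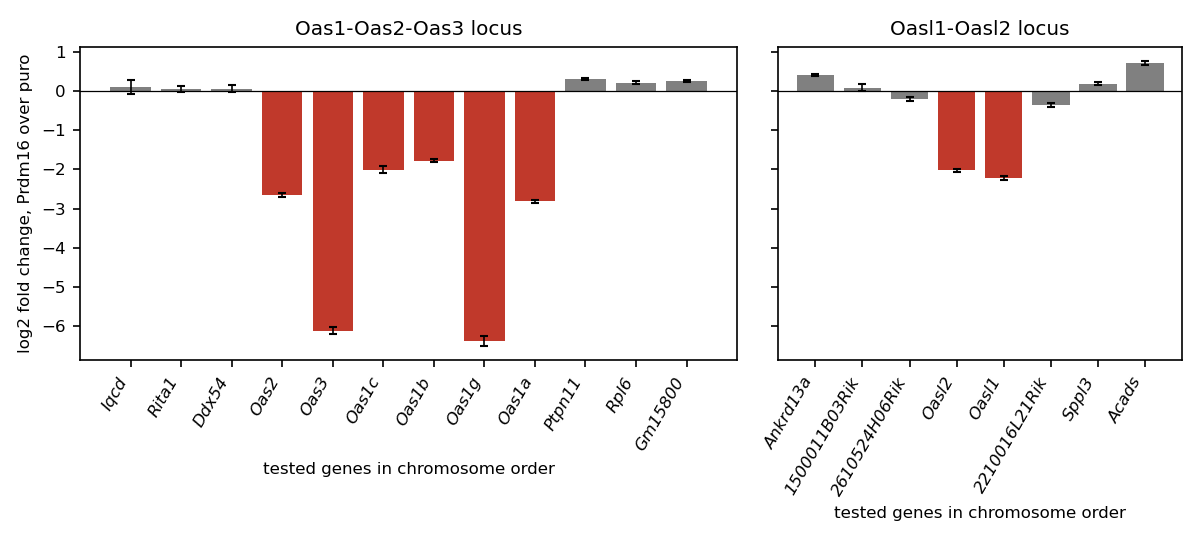
Log2 fold change, Prdm16 over puro, of the Oas genes (red) and of the nearest 3 tested protein-coding genes on each side (grey), in chromosome order with SE bars. Every Oas bar reaches −1.77 or lower, and the grey bars stay between −0.36 and 0.72. Oas1d, at 0 counts in the Prdm16 libraries, is left out.

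Of 4 genes linked to the function or breakdown of 2-5A, 1 was lower, 2 were higher and 1 did not pass, with a median log2 fold change of 0.14. This share called is near the 75.6% of all tested genes and is no result about the group. Enpp1, a membrane pyrophosphatase that hydrolyses cGAMP and other nucleotides, stood at 18.7 ± 1.04 CPM with Prdm16 and 103.7 ± 2.78 CPM with puro (SD, n = 3 each), a log2 fold change of −2.47 ± 0.05 (SE; adjusted p = 5.04e-12, edgeR). Pde12, a phosphodiesterase that degrades 2-5A, was higher by 0.63 ± 0.08 on the log2 scale (adjusted p = 1.78e-05, edgeR). Abce1, a ribosome recycling factor, was higher by 0.22 ± 0.04 (adjusted p = 0.000309, edgeR). Akap7, which can also cleave 2-5A, had 0.06 ± 0.07 and did not pass.

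Most other sensors of foreign nucleic acid were lower as well. Among 13 tested genes of RNA and DNA sensing 10 were lower, 1 higher and 2 not passing, where 75.6% of all tested genes were called and 38% were lower, with a median log2 fold change of −0.86. Dhx58, the regulator LGP2 of the RIG-I family, had a log2 fold change of −2.41 ± 0.06. The RNA helicase sensors Ifih1 and Ddx58 had −1.33 ± 0.04 and −1.26 ± 0.03, and Adar, which edits double-stranded RNA, had −1.19 ± 0.03. The adaptor Mavs went the other way, at 0.22 ± 0.04 (adjusted p = 0.000517, edgeR).

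Of 14 tested genes of type I interferon signalling 11 fell, 1 rose and 2 did not pass, beside 75.6% of all tested genes called and 38% lower. Their median log2 fold change was −0.39. Irf7, the transcription factor that amplifies interferon production, stood at 52.0 ± 4.14 CPM in Prdm16 libraries and 731.9 ± 58.8 CPM in puro libraries (SD, n = 3 each), 14.1-fold lower. Usp18, a feedback inhibitor of the receptor, had a log2 fold change of −2.12 ± 0.05. The signal carrier Stat2 had −1.07 ± 0.03, and Irf5, a transcription factor of inflammatory and interferon genes, had −2.42 ± 0.08. Irf3, a factor that switches on Ifnb1 after nucleic acid sensing, was higher by 0.40 ± 0.08 (adjusted p = 0.000779, edgeR).

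Of 18 interferon genes in the table only Ifnb1, the first interferon many cells make, had enough counts to test. It was read 3, 1 and 1 times in the Prdm16 libraries, against 34, 41 and 39 times in the puro libraries, a log2 fold change of −4.38 ± 0.35 (SE; adjusted p = 5.76e-07). In 12 of the 18 all 6 libraries had 0 counts, Ifng among them. Interferon alpha genes are near-identical copies, so their counts are uncertain.

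**Figure D5:**
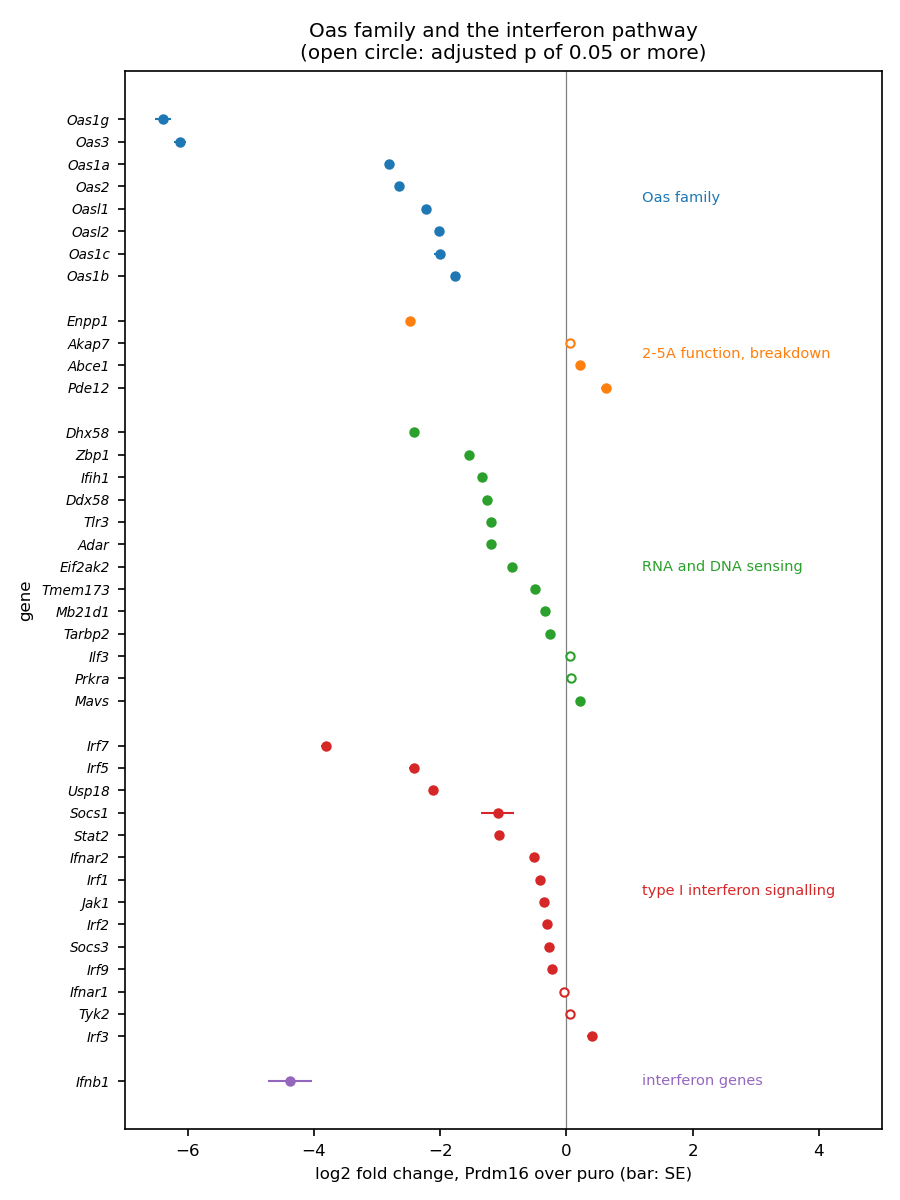
Log2 fold change, Prdm16 over puro, with SE bars for the 8 Oas genes and for the tested genes of 4 further lists. Filled circles passed an adjusted p of 0.05. Oas1g (−6.39) and Oas3 (−6.12) lie furthest left, and Pde12 (0.63) furthest right.

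Promoter windows were searched for these lists except that of the interferon genes, so nothing is said here of a core at Ifnb1. Of the 27 searched genes that had a window, 6 held an ISRE core, namely Ddx58, Eif2ak2, Ifih1, Irf2, Socs1 and Stat2. Among all RefSeq windows 3.44% held one, a share counted per window and not per gene.

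Some markers of the cells themselves and of other cells differed between the groups, where 75.6% of all tested genes were called. Others did not pass or had too few counts to test. The 11 stromal progenitor markers summed to 3449 to 3757 CPM in Prdm16 libraries and 10960 to 11930 CPM in puro libraries. That difference was carried by the collagens Col3a1, Col1a2 (189 CPM with Prdm16, 3428 CPM with puro) and Col1a1 (145 CPM with Prdm16, 1705 CPM with puro), while Ly6a was higher with Prdm16. The 11 macrophage markers summed to 8.80 to 8.92 CPM in Prdm16 libraries and 14.3 to 15.7 CPM in puro libraries. In each group 3 of them had 0 counts, and 2 had 0 counts in all libraries. Fcgr1 was at 0 only with Prdm16 and Ptprc only with puro. Cd14 (3.70 CPM with Prdm16, 9.17 CPM with puro) and Lyz2 (0.033 CPM with Prdm16, 1.46 CPM with puro) were lower, and Cd68 stood at 4.60 CPM with Prdm16 and 3.85 CPM with puro and did not pass. The 6 mammary epithelial markers summed to 21.0 to 22.8 CPM with Prdm16 and 0.258 to 0.328 CPM with puro, carried by Krt18, Cdh1 and Epcam, while Krt5, Krt8 and Krt14 had at most 3 counts in any library. Endothelial markers summed to 9.46 to 12.2 CPM with Prdm16 and 3.58 to 3.96 CPM with puro, and the defining Cdh5 had 0 counts throughout. The sum was carried by Tek (10.2 CPM with Prdm16, 1.19 CPM with puro), whereas Vwf was lower (0.298 CPM with Prdm16, 1.78 CPM with puro). Siglech, which defines plasmacytoid dendritic cells, a strong source of interferon, had 0 counts in every library. Bst2, listed with it, is itself induced by interferon and had a log2 fold change of −1.42 ± 0.08. From the same list Zbtb46 was higher by 0.23 ± 0.09 (adjusted p = 0.0326, edgeR), and Tcf4 had 0.03 ± 0.04 and did not pass. The part of these cells in the Oas result was not tested.

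Genes with the profile most like each member were found by the root mean square difference of log2(CPM + 0.5), centred per gene, over the 6 libraries. The nearest were Phf11d to Oasl2 (0.028), Adamts14 to Oasl1 (0.024), Lrrc75b to Oas2 (0.026), Epdr1 to Oas1b (0.027), Cxcl12 to Oas1a (0.041) and Wisp2 to Oas1c (0.041). Oas1g and Oas3 had no near profile, the closest being Ctla2a at 0.163 and Megf10 at 0.22. Lrrc75b, Ctla2a and Megf10 stood at 0.90, 0.691 and 0.0934 CPM with Prdm16, so the 0.5 added to each value shrinks their differences. Their fitted log2 fold changes were −3.16, −5.81 and −8.78, against −2.65 for Oas2, −6.39 for Oas1g and −6.12 for Oas3. With 6 libraries in 2 groups this likeness is mostly that of the group difference.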

How the data were processed

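Polyadenylated RNA was sequenced in 6 libraries, 3 per group. The deposited table holds raw counts per gene symbol, made by the authors with STAR, featureCounts and Subread on build mm9, per the submitters' processing notes, which give no role or order. The sources used here give no versions, strand setting or treatment of multiply matching reads, and counts of overlapping genes and close copies are therefore uncertain.

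In R 4.3.3, edgeR 4.0.16 kept 13805 of 24197 genes by filterByExpr, scaled libraries by TMM and tested Prdm16 over puro by quasi-likelihood, two-sided. Benjamini-Hochberg adjustment ran over all tested genes, with calls at 0.05. An SE is the log2 fold change divided by the root of its F value. The common biological coefficient of variation was 4.78%. Pairs of replicate libraries gave a mean chi-square per gene of 2.14 to 9.30, where sampling noise gives 1. Genes with at least 20 counts in the pair were used. No pair thus looked like 1 library deposited again, which does not show that replicates were separate cultures. Within-library log2 ratios were compared by exact permutation.

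Transcript lengths and shared stretches came from GENCODE M21, and promoter windows from RefSeq, build GRCm38.p6. Introns and intergenic sequence were not searched for shared stretches. Members, lists, ratios and the rule for named genes were chosen with earlier results of these data known. The rule named all members, every further Oas1 copy and 2-5A gene, and from the other lists the 4 genes with the smallest p and those that went against the majority. Listed genes whose results are not reported here were left out of the lists and their counts. Marker genes and Irf2, Socs1 and Eif2ak2 beyond that rule were named after their values were seen. Alternatives were other scalings, filters and tools (DESeq2 1.42.0, limma-voom 3.58.1), a replicate block, stricter calls, Prdm16 left out, Oas1 rows summed, chromosome medians removed and each library left out.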

Additional observations from a re-analysis of the deposited data

How the results depend on the processing

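All 8 members remained lower and past the threshold under each of 17 settings in which they could be tested, 132 of 132 values. The lowest and highest log2 fold changes with 1 library left out were −6.64 and −6.22 for Oas1g, −6.18 and −6.03 for Oas3 and −1.80 and −1.72 for Oas1b. Removing chromosome medians gave the lowest values of the other settings, −6.57 for Oas1g and −6.30 for Oas3. The largest adjusted p over all settings was 1.06e-07, for Oas1c. The count of genes called lay between 9192 (adjusted p of 0.01) and 11149 (no low-count filter), against 10430. With Oas1 rows summed, the single Oas1 members gave no value. The 3 ratios kept their sign with 1 added to the counts and with any 1 library left out, and their exact p cannot fall below 0.1. Without puro replicate 3 the difference for Oasl1 over Oasl2 was −0.16, with exact permutation p = 0.2. In every other case the exact permutation p was 0.1. Same-numbered libraries of the groups had deviations correlated at −0.30, 0.147 and −0.111. These deviations are from the mean of only 3 libraries, so they cannot tell whether the numbers pair the libraries. A replicate block gave 8 members lower and 10089 genes called. Depth limits Oas1g in the Prdm16 group, with 43 counts in all, and the Oas1e, Oas1f and Oas1h copies.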
